A study of Homo sapiens and Mus musculus with 10 samples.

Results

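The genes described here are 10 factors of the pluripotency network: Pou5f1 (which encodes Oct4), Nanog, Sox2, Esrrb, Zfp42 (Rex1), Klf4, Prdm14, Tfcp2l1, Lin28a and Dppa4. They were chosen by name, as mouse genes in the 2 libraries of mouse embryonic stem cells (mESC) and as human genes of the same name in the 8 libraries of 4 human lines. They are 10 of 21755 mouse and 10 of 19970 human protein-coding genes on the autosomes and X. Accessible chromatin was measured by bulk ATAC-seq, in which the Tn5 transposase inserts adapters into open DNA. The human lines were GM12878 (a B-lymphoblastoid line), HEK293T (an embryonic kidney line), HFF1 (foreskin fibroblasts) and K562 (an erythroleukaemia line), with 2 replicates each. The labels name no treatment or genetic change, and the mESC were grown with leukaemia inhibitory factor on no feeder cells. The series has no human pluripotent line and no differentiated mouse line, so species and cell state cannot be told apart. The labels do not say whether replicates were separate cultures, so the spread between them may be technical.

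Oct4, Sox2 and Nanog are transcription factors that occupy many of the same regulatory elements in pluripotent cells, their own genes included. Oct4 and Sox2 bind side by side to a composite DNA element. Esrrb, Klf4, Tfcp2l1 and Prdm14 support self-renewal in naive mouse stem cells, Zfp42 and Dppa4 are widely used markers of the state, and Lin28a is an RNA-binding protein that blocks maturation of let-7 microRNAs. Klf4 and Sox2 also act outside pluripotent cells, Klf4 in epithelium, blood vessels and fibroblasts and Sox2 in neural and foregut tissue.

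The deposited lists held 138452 and 142297 peaks in mESC and from 52170 peaks (HEK293T) to 127560 peaks (HFF1) in the human libraries. The lists carry no reads, but the number of reads stacked at each summit and the local background could be solved from the authors' fold and p-value. HEK293T was the shallowest line, with a median of 16 reads at a summit in each library against medians of 30 to 35 elsewhere, so a weak site could be missed more easily there. Between 79.5% and 89.4% of a library's peaks overlapped a peak of its replicate. Promoter peaks in both replicates were found at 4 of 4 B-cell genes in GM12878, 5 of 5 fibroblast genes in HFF1, 4 of 4 kidney genes in HEK293T and 3 of 4 erythroid genes in K562, where KLF1 had none. In mESC, 4 of 7 feeder fibroblast genes had one and Col3a1, Postn and Prrx1 had none, and all 10 genes of differentiated lineages had one. In bulk samples, fewer cells with an open site and less opening per cell cannot be told apart.

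All 10 factors had a peak within 1 kb of an annotated start site in both mESC libraries, against 73.1% of mouse protein-coding genes. Among the 50000 best peaks of each library, 7 of 10 had one, and the share of all genes under that cut was not computed. In the human lines the same rule was met by 2 of 10 genes in GM12878 (background 71.9%), 4 in HEK293T (67.8%), 4 in HFF1 (76.2%) and 3 in K562 (70.4%). KLF4 was the single factor with a promoter peak in all 8 human libraries, which 59.7% of human genes had. ZFP42 and PRDM14 had none in any, as had 14.7% of human genes. In all, 6 of 10 factors had a promoter peak in both libraries of at least 1 human line, against 82.9% of genes. Several sites were called in 1 library of a line: with its replicate 1 left out GM12878 had 4 factors, and with its replicate 2 left out HFF1 had 7. For these counts too the share of all genes was not computed.

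**Figure D1:**
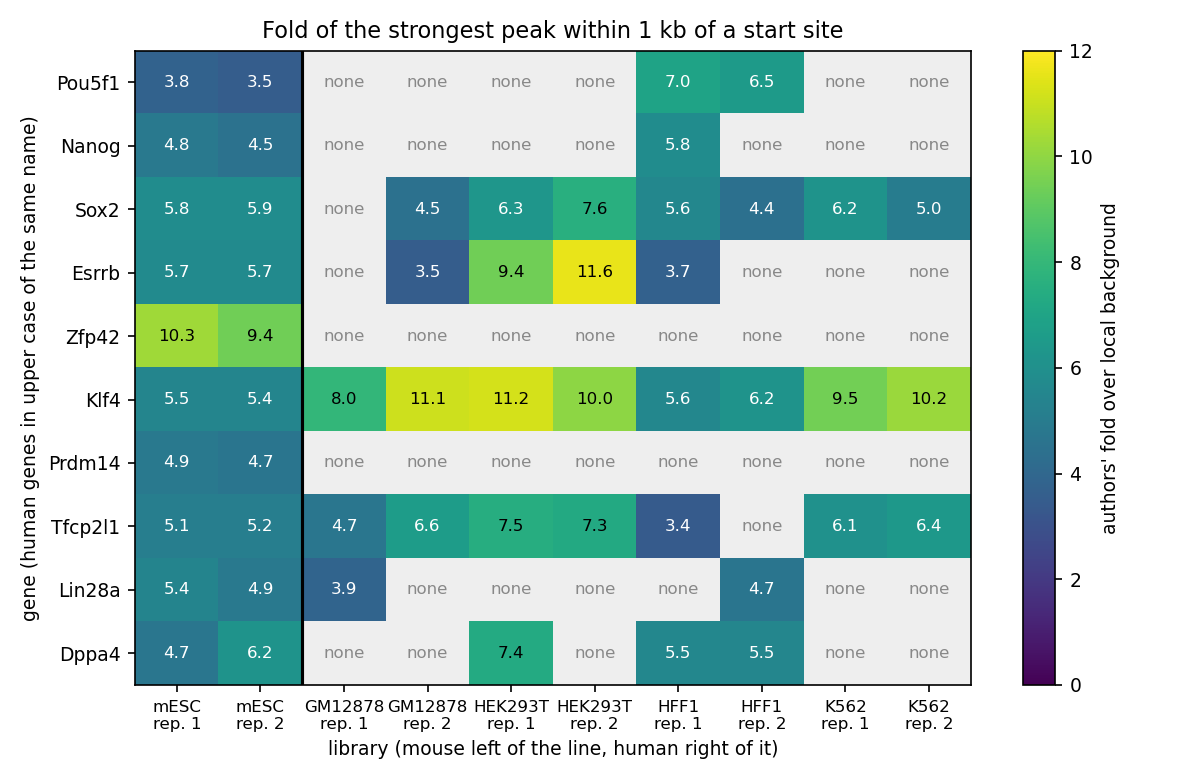
Fold over local background of the strongest peak within 1 kb of a start site, for 10 genes (rows) in 10 libraries (columns); "none" means no peak in the list. Every mESC cell holds a value, from 3.52 (Pou5f1) to 10.3 (Zfp42), and the human columns are mostly empty apart from KLF4, SOX2 and TFCP2L1.

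Pou5f1 lies at chr17:35506018-35510772 (GRCm38, plus strand). Its start-site peak, with the summit at −64 bp, had a fold of 2.14 and 1.97 in the 2 mESC libraries, the lowest of any factor's start-site peak. The fold was low over a high background: 131 and 120 reads were stacked at the summit, against a local background of 60.7 and 60.6 reads. A second peak at 3.50 kb lay over a coding exon near internal start sites and reached 188 and 173 reads (fold 3.78 and 3.52). The upstream flank peak at −1963 bp, in the region where the known proximal and distal enhancers of the gene are found, was the tallest with 192 and 191 reads.

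The raised background was a block. The 8 successive peaks from 5.40 kb upstream of Pou5f1 to 6.48 kb past its end in replicate 1, a span of 16.6 kb in each library, had backgrounds of 23.9 to 60.7 reads in replicate 1 and 23.7 to 60.6 in replicate 2. All other peaks within 100 kb had 3.10 to 14.2 and 2.86 to 12.7 reads. The 8 were picked as the peaks above 20 reads, so the gap between the ranges follows at least in part from that cut. That the 8 are successive does not follow from it. Over the whole mESC lists, 0.448% and 0.358% of peaks had a background above 20 reads, a value chosen after seeing the data. Among runs of 5 or more such peaks the Pou5f1 run had the highest median background in each library, 45.6 and 46.1 reads, and the most peaks. The cause was not tested.

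**Figure D2:**
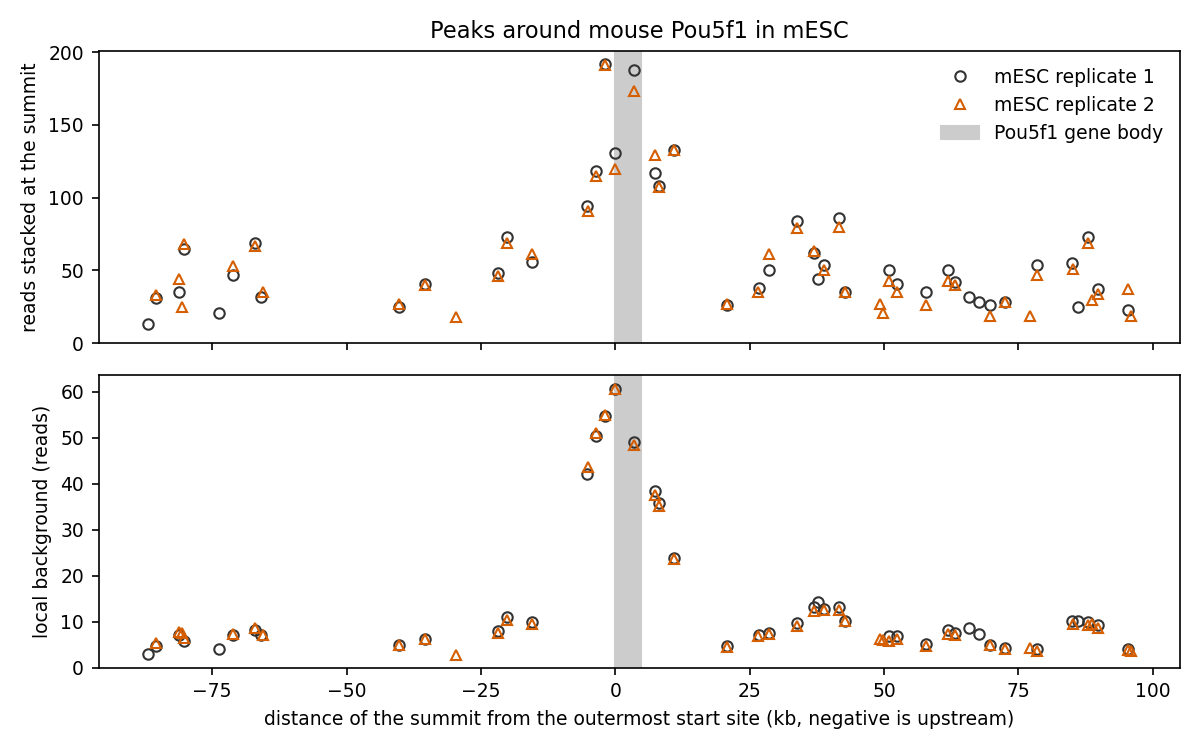
Reads stacked at the summit (top) and solved local background (bottom) of every peak within 100 kb of mouse Pou5f1, by distance from the outermost start site, in both mESC libraries. The 8 peaks around the gene, picked as those above 20 background reads, stand at 23.7 to 60.7.

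Nanog (chr6:122707489-122714633, plus strand) had a single promoter peak, with 109 and 96 reads and a fold of 4.84 and 4.53. Its tallest flank peak stood at −4805 bp with 140 and 130 reads (fold 6.53 and 6.39). By p-value the strongest peak of the locus was 104 kb downstream, with a fold of 9.34 and 9.79. The promoter peak covers an OCT-SOX composite element. The element searched was CATTGT, then any 1 base, then ATGCAAAT, on both strands, and it contains the octamer ATGCAAAT that was also searched alone. The site at chr6:122707413-122707427 (minus strand) had 1 mismatch. Among promoters of 300 bases, 22 of 93196 mouse windows at GENCODE start sites (0.0236%) and 9 of 34961 human windows from RefSeq (GRCh38.p14, 0.0257%) held the element with at most 1 mismatch, Nanog and NANOG among them.

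The stretch around the site is shown with its human counterpart, since the same 15 bases were found in the human gene and no human library had a peak there. Both are written from the minus strand, with the 15 bases of the composite in capitals. The mouse stretch is chr6:122707385-122707455 (GRCm38) and the human one chr12:7789253-7789323 (GRCh38).
Nanog, mouse: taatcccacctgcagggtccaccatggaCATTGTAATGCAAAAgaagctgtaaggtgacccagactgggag
NANOG, human: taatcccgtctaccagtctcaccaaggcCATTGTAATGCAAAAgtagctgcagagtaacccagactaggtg
The stretches were identical at 54 of 71 bases (76.1%) and at all 15 bases of the element. The human site ends 107 bp before an annotated NANOG start site. A second copy of the human stretch, identical over its 71 bases, has its site 315 bp before the NANOGP1 pseudogene (chr12:7892576-7898903). A read that lies within the stretch cannot be assigned to one copy, and how the authors treated such reads is not given in the sources used here. None of the 8 human libraries had a peak over either copy.

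Sox2 (chr3:34650405-34652461, plus strand) had 2 promoter peaks. The main one, at −479 bp, had 106 and 100 reads and a fold of 5.83 and 5.85. The weaker one, at 524 bp over the coding exon, had 47 and 51 reads. The 3 strongest other peaks lay 95.0 kb downstream (fold 10.0 and 10.2), 74.0 kb upstream (fold 13.9 and 15.7) and 18.2 kb downstream (fold 7.32 and 6.48). A peak at 3.64 kb downstream of the start, with 59 and 64 reads, held the composite with 1 mismatch at chr3:34654049-34654063. It lies in the part of the locus that holds a known Oct4- and Sox2-bound enhancer of the gene, and is shown because it and the Nanog promoter were the 2 member sites with 1 mismatch. No exact copy of its 15 bases was found within 100 kb of human SOX2. Copies with mismatches were not counted, so the search cannot show that the element is absent there.
Sox2, mouse: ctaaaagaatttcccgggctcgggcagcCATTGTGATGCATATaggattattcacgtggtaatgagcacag
Here chr3:34654021-34654091 is written from the plus strand with the 15 bases in capitals. The middle of the site lay 9 and 11 bp from the peak's summit. At the Nanog promoter the distance was −38 and −61 bp.

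The composite with 2 mismatches was found in 2 more peaks present in both libraries. One lay 33.7 kb downstream of Pou5f1 (84 and 79 reads, fold 7.90 and 7.95).
Pou5f1 downstream, mouse: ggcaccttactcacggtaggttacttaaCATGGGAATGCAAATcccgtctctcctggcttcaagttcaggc
The other lay at −82718 bp from the Nanog start (90 and 88 reads, fold 6.82 and 7.01).
Nanog upstream, mouse: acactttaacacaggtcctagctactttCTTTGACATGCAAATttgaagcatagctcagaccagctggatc
Both are written from the minus strand (chr17:35539599-35539669 and chr6:122624653-122624723), with the matched bases in capitals. Over whole peaks, 4 of 345 and 4 of 356 peaks of the 10 loci held the composite with at most 2 mismatches (1.16% and 1.12%), against 1.15% and 1.16% of all mESC peaks. The loci of the 10 factors thus held the element at about the share of the whole list. Within 50 bases of the summit, the window set for the search, 2 member peaks held it in replicate 1 (the Nanog promoter and Sox2, 0.580% against 0.551% of all peaks) and 1 in replicate 2 (Sox2, 0.281% against 0.562%). In the summit window the ESRRB motif TCAAGGTCA was in 1.74% and 1.69% of member peaks, against 0.802% and 0.813% of all, which is 6 peaks in each library. Over whole peaks it was in 3.77% and 4.21%, against 2.25% and 2.17%. The KLF motif GGGNGTGG was in 11.3% and 10.4%, against 8.76% and 8.59%, but over whole peaks in 25.5% and 22.5%, against 23.5% and 22.8%. The TFCP2L1 motif was in 11.3% and 11.5% around the summit, against 11.7% and 11.6%. The octamer alone was in 3 and 1 member peaks around the summit (0.870% and 0.281%), against 1.57% and 1.58% of all peaks. The STAT3 motif TTCCNGGAA was in 0 and 1, against 0.498% and 0.508% of all. The PRDM14 motif GGTCTCTAA was in none, and in 0.0672% and 0.0591% of all. Such small counts are not read as a result about the members. No human member peak held the composite with at most 2 mismatches. Over whole peaks 0.179% to 0.434% of all peaks of a human library did. With 60 to 119 member peaks per library, finding none is near that share. A match describes the letters and does not show binding.

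Esrrb (chr12:86361117-86521628, plus strand), an orphan nuclear receptor gene 160512 bp long, had the most peaks within 100 kb, 51 and 54. Inside the gene and outside its start-site windows lay 22 and 26 of them. The peak in the window of the outermost start was weak, with 16 and 14 reads. It lay upstream of that start, with its summit at −1069 bp. Start-site windows further in had the strong ones: 98 and 99 reads at 109 kb, and 93 and 100 reads at 110 kb. The strongest peak of the locus was intronic at 41.8 kb, with a fold of 11.5 and 13.5, and held a match to the CTCF motif. Peaks with a background above 20 reads were also found at Esrrb (5 and 4, up to 31.9 and 30.3 reads), Nanog (4 and 2, up to 22.3 and 21.8), Klf4 (2 and 2, up to 23.2 in replicate 1) and Tfcp2l1 (2 and 1, up to 21.9 and 21.8). The other 5 factors had none.

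Zfp42, a zinc-finger gene, had the strongest start-site peak of the 10 by fold, 10.3 and 9.41. A second peak in its first intron, at 1.12 kb, had 76 and 80 reads. A flank peak at −13891 bp was stronger than either, with a fold of 13.2 and 14.1. Klf4 (chr4:55527143-55532466, minus strand) had a fold of 5.48 and 5.45 at its start site. The peak 17.5 kb past the start had a fold of 12.2 and 13.2, and one 68.1 kb past it had 103 and 102 reads. Of its 17 flank peaks found in both libraries, 1 was upstream.

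Prdm14 (chr1:13113457-13127163, minus strand) had 62 and 58 reads at its start site, with a fold of 4.86 and 4.66. Its strongest peak was 42.1 kb past the start, with 112 reads in both libraries. Tfcp2l1 (chr1:118627945-118685168, plus strand) had a fold of 5.15 in both at its start, and an intronic peak at 20.2 kb had 127 reads in each. Lin28a (chr4:134003330-134018841, minus strand) has 4 start sites and had 5 and 4 promoter peaks, and the one at the outermost start had 64 and 55 reads. Its strongest neighbours were promoters of other genes, those of Dhdds (fold 16.1 and 15.3), Crybg2 (9.94 and 9.53) and Ubxn11 (16.2 and 14.9). Dppa4 (chr16:48283733-48294237, plus strand) had the fewest reads at its start site, 31 and 42, apart from the peak upstream of Esrrb's outermost start. The promoter of its neighbour and relative Dppa2, 20.0 kb downstream, had 51 and 49.

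For all 10 factors the peak with the lowest p-value within 100 kb lay outside the promoter windows in both mESC libraries. The same held for 70.8% of the 15905 mouse genes with a promoter peak in both, so the members' count is read against a high share. This comparison was added after seeing the data.

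**Figure D3:**
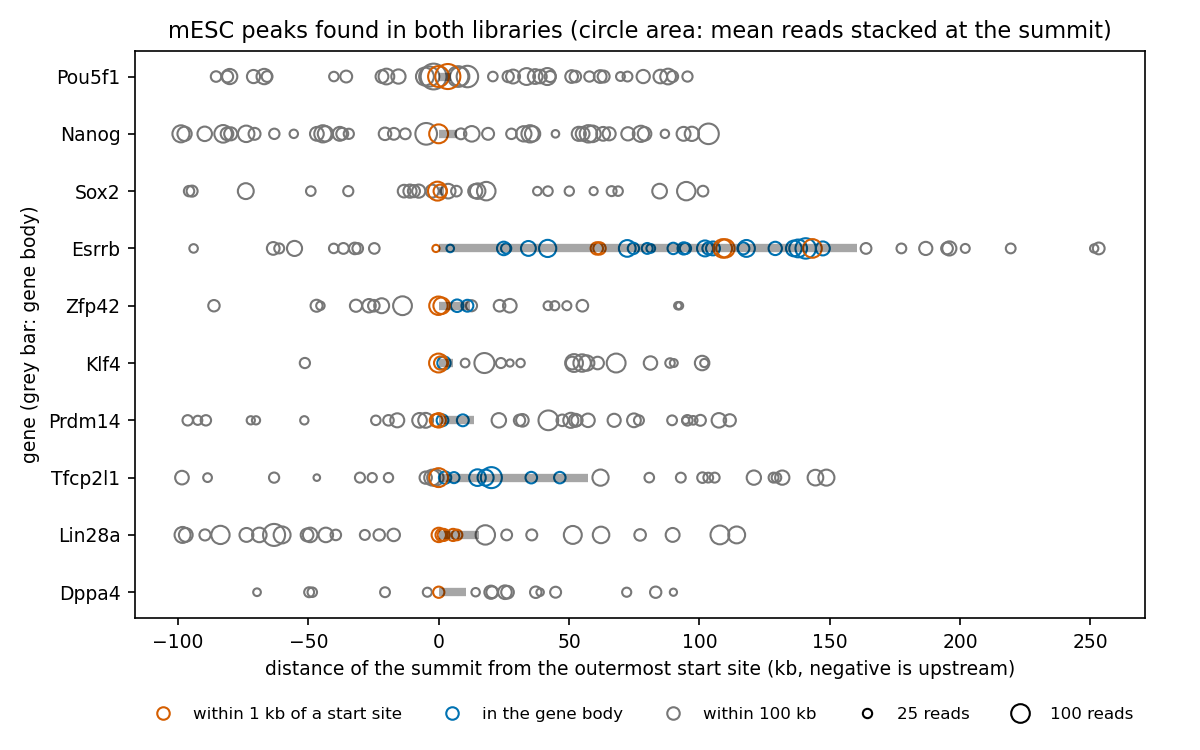
Peaks found in both mESC libraries around each factor, by distance of the summit from the outermost start site, with circle area for reads stacked at the summit and a grey bar for the gene. Pou5f1's tallest peaks cluster at the gene, Esrrb's spread through 160512 bp of gene body, and Klf4's lie on the downstream side.

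The number of peaks within 100 kb of a factor had a median of 33.5 and 35.5 in the mESC libraries, where all genes had 23 and 23. In each human library it was below the median of all genes: 8.5 and 11 in GM12878 (all genes 15 and 15), 4.5 and 4.5 in HEK293T (8 and 7), 11 and 7 in HFF1 (17 and 17), and 6.5 and 6 in K562 (13 and 12). In mESC the order ran from Esrrb (51 and 54) and Nanog (50 and 49) through Pou5f1 (45 and 46), Tfcp2l1 (36 and 40), Prdm14 (35 and 37), Sox2 (31 and 34), Lin28a (32 and 31), Zfp42 (24 and 26) and Klf4 (22 and 21) to Dppa4 (19 and 18). Tfcp2l1 and Prdm14 overlapped in their 2 libraries, as did Sox2 and Lin28a, so neither pair is ordered beyond its spread. Gene length enters these counts, since the window is the gene plus 100 kb on each side.

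Peaks inside the gene and outside start-site windows, in both libraries, were found for 5 of 10 factors in mESC (53.9% of all genes), 4 in GM12878 (52.6%), 2 in HEK293T (31.9%), 2 in HFF1 (51.3%) and 2 in K562 (44.5%). In HFF1 the count was 4 without replicate 2. ESRRB and LIN28A had such a peak in every human line.

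**Figure D4:**
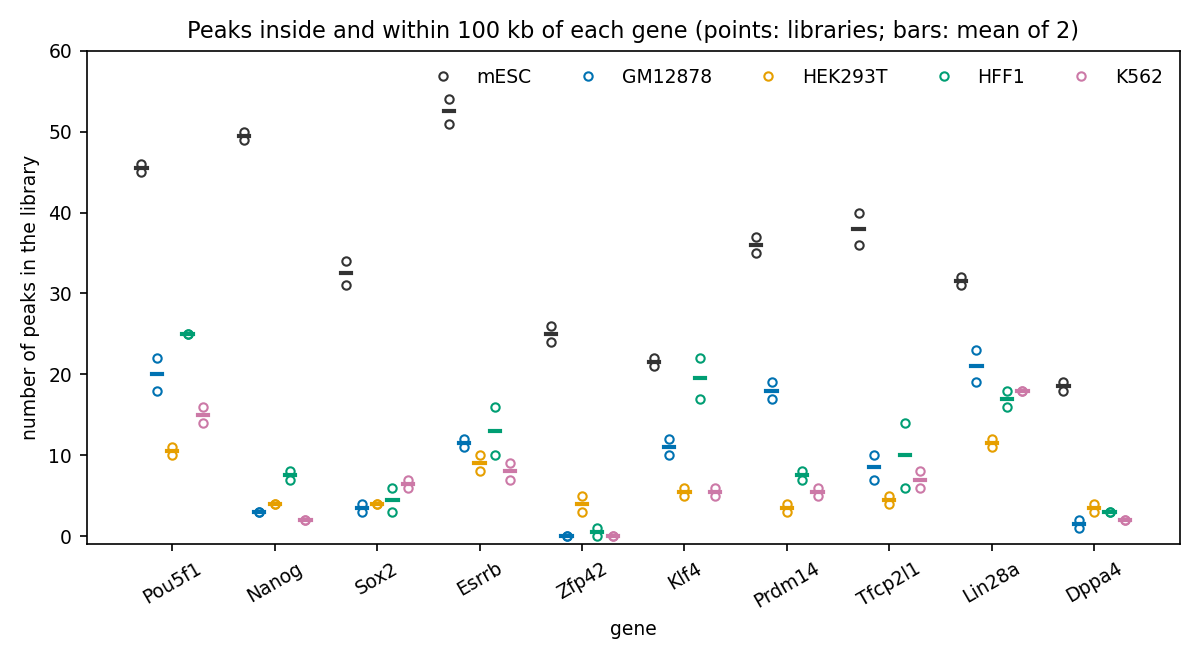
Number of peaks inside and within 100 kb of each gene, with a point per library and a bar at the mean of 2. For 9 of 10 genes both mESC points lie above every human point, the exception being KLF4, where HFF1 has 22 and 17 peaks against 22 and 21. The share of all same-name pairs for which this holds was not computed. The median over all genes was also higher in mESC, 23 in each library against 7 to 17 in the human libraries.

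Whether the number of peaks near a factor differed between the 4 human lines was tested for every gene, by an exact one-sided permutation test of eta squared (how much of the variance lies between lines) over all ways to divide the 8 libraries into pairs, with Benjamini-Hochberg adjustment over 19867 genes. The test called 64.0% of genes, and 5 of 10 factors: POU5F1, NANOG and PRDM14 (p = 0.00952, the smallest these permutations can give, adjusted 0.0363) and KLF4 and LIN28A (p = 0.0286, adjusted 0.0446). A count of 5 of 10 is near that background. The peak numbers tested were not scaled for list length, which ran from 52170 peaks (HEK293T) to 127560 peaks (HFF1). A gene that differs in 1 line alone, with the other 6 libraries equal, has an exact permutation p = 0.143 in this design, because 15 of the divisions keep its 2 libraries together. ZFP42 has that exact p. The calls rest on few pairings: leaving out any 1 library other than HFF1 replicate 2 left 1 to 3 factors called (3 and 2 without GM12878 replicate 1 or 2, 1 and 2 without HEK293T replicate 1 or 2, 1 without HFF1 replicate 1 and 1 without either K562 replicate), where 19.5% to 22.1% of all genes were called. With windows of 50 kb or the 50000 best peaks of each library no factor was called, and neither was any other gene (0 of 19717 and 0 of 19793).

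PRDM14 stood apart in GM12878, with 19 and 17 peaks. HEK293T had 3 and 4, HFF1 8 and 7, and K562 5 and 6, so the GM12878 libraries overlapped no other line. How many of all genes set a line apart in this way was not counted. PRDM14 was among 5211 of the 19867 genes tested that reached the smallest p these permutations can give. Of 23 regions around PRDM14, 10 were found in both GM12878 libraries and in no other library. They included 4 peaks in the gene body, the best in an intron at 17.5 kb (fold 7.98 and 11.5), and a flank peak at 58.0 kb with 67 and 68 reads. No peak overlapped its start-site windows, and the nearest GM12878 region began 1339 bp from a start site. The share of regions found in GM12878 alone was not computed over the whole genome. The 10 regions are thus not read as particular to PRDM14.

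KLF4 had most peaks in HFF1, 22 and 17, followed by GM12878 (10 and 12), HEK293T (6 and 5) and K562 (6 and 5). Its promoter peak, over the first intron about 0.478 kb past the outermost start, had 85 and 84 reads in HFF1, 88 and 86 in K562, 48 and 68 in GM12878 and 50 and 47 in HEK293T. In HFF1 the authors' fold there was 5.57 and 6.18, over a local background of 14.4 and 12.8 reads. A region 24.6 kb past the start was found in all 8 libraries with folds of 9.23 to 15.4. Regions found in HFF1 alone, in both libraries, numbered 8, and 4 were found in GM12878 alone. For these regions too the share over the whole genome was not computed.

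POU5F1 had 25 and 25 peaks in HFF1, 18 and 22 in GM12878, 16 and 14 in K562 and 11 and 10 in HEK293T. The lines stood in the same order by list length, for which these counts were not scaled. The gene lies within the HLA region, at chr6:31164337-31180731 (GRCh38, minus strand). Its promoter peak, found in both HFF1 libraries with 28 and 21 reads (fold 6.96 and 6.53), was at the outermost of 5 annotated start sites, at −87 bp. In GM12878 a peak over a coding exon at 15.5 kb had 48 and 46 reads. The promoters of neighbouring genes were open throughout: the shared promoter of CCHCR1 and TCF19 had a fold of 10.1 to 12.7 and that of HLA-C 9.04 to 14.3, each in all 8 libraries. The mouse peak at the Tcf19 and Cchcr1 promoter was also in both mESC libraries (133 reads in each).

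NANOG had 8 and 7 peaks in HFF1, 4 and 4 in HEK293T, 3 and 3 in GM12878 and 2 and 2 in K562, in place of the 50 and 49 around mouse Nanog. Its single promoter peak was in HFF1 replicate 1 (19 reads, fold 5.83) and was missing from replicate 2. A region 72.6 kb downstream was found in all 8 libraries, with folds of 5.39 to 13.8 and a CTCF match. ZFP42 had no peak within 100 kb in any GM12878 or K562 library, 1 and 0 in HFF1, and 5 and 3 in HEK293T. Of the 2 HEK293T peaks found in both libraries, the one 66.5 kb upstream had 21 and 25 reads and the other, at 19442 bp, 16 and 19.

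SOX2 had a promoter peak in 7 of 8 human libraries, all but GM12878 replicate 1. At the start site it had 21 and 29 reads in HEK293T, 28 and 19 in HFF1, 20 and 16 in K562 and 14 in GM12878 replicate 2. Their −log10 p stood at percentiles 38.9 and 65.7 of all peaks in the HEK293T lists, 39.6 and 15.4 in HFF1, 35.9 and 15.1 in K562 and 6.5 in GM12878 replicate 2. Among the 50000 best peaks of each library, SOX2 had a promoter peak in 2 human libraries in place of 7, TFCP2L1 in 4 in place of 7, ESRRB in 2 in place of 4 and DPPA4 in 1 in place of 3. POU5F1, NANOG and LIN28A then had one in 0, and KLF4 kept all 8. The cut took little from the HEK293T lists (52438 and 52137 peaks) and far more from the HFF1 lists (127359 and 120344). Which sites remain thus depends on list length. A region 11.2 kb upstream of SOX2 was found in all 8 libraries (fold 4.52 to 9.09). TFCP2L1 also had a promoter peak in 7 libraries, all but HFF1 replicate 2, and the region at its start site had folds of 3.37 to 7.46. The peak held 37 and 36 reads in K562 and 19 and 18 in HEK293T.

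ESRRB had a start-site peak in both HEK293T libraries, at an internal start 65.4 kb into the gene, with 19 and 24 reads and a fold of 9.41 and 11.6. It was also called in GM12878 replicate 2 (fold 3.55, 10 reads) and HFF1 replicate 1 (fold 3.74, 22 reads). An intronic region at 76.7 kb was found in all 8 libraries, with folds of 8.87 to 16.8. DPPA4 had promoter peaks in both HFF1 libraries (18 and 17 reads, fold 5.53 and 5.51) and in HEK293T replicate 1 (10 reads). LIN28A had one in GM12878 replicate 1 (17 reads) and HFF1 replicate 2 (19 reads), and so in both libraries of no line. A region 2.12 kb upstream of LIN28A was found in all 8 libraries with folds of 5.39 to 11.3, and its edge lies 1937 bp from the start site, outside the 1 kb window.

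The LIN28A locus had 8 regions found in all 8 human libraries, the most of the 10 loci. One is intronic, at 6.39 kb, with 64 and 66 reads in GM12878, 49 and 47 in K562, 37 and 38 in HFF1 and 17 and 19 in HEK293T (fold 9.36 to 15.9). It holds a match to the CTCF motif, a sequence bound by an architectural protein, which was added to the search after seeing the data. ESRRB has such a match at 42.2 kb, in an intron, with a peak in 6 of 8 libraries and none in K562. In mESC the strongest Esrrb peak also was intronic, at 41.8 kb, with a CTCF match; whether the regions correspond was not tested. The human sites are shown from the minus strand, with the match in capitals (LIN28A at chr1:26417180-26417249, ESRRB at chr14:76352916-76352985).
LIN28A, human: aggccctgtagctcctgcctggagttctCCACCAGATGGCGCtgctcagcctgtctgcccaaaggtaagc
ESRRB, human: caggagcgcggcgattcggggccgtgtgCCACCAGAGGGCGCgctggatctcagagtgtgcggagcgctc
Of the 214 regions around the 10 human genes, 23 were found in all 8 libraries, and 5 of these (21.7%) held a CTCF match. The match was in 6 of 128 regions found in 2 to 7 libraries (4.69%) and in 0 of 63 found in 1 library. Regions found in more libraries merge more peaks. The shares for such regions over the whole genome were not computed, so these counts are not read as particular to the 10 loci. Of the 23, 7 lay at promoters of other genes. Over whole peaks, the motif was in 7.29% to 13.6% of member peaks of the 8 human libraries and in 2.49% to 5.55% of all their peaks. A human site was counted again in each library with a peak over it. In mESC the motif was in 3.48% and 3.37% of member peaks, against 3.44% and 3.37% of all peaks.

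**Figure D5:**
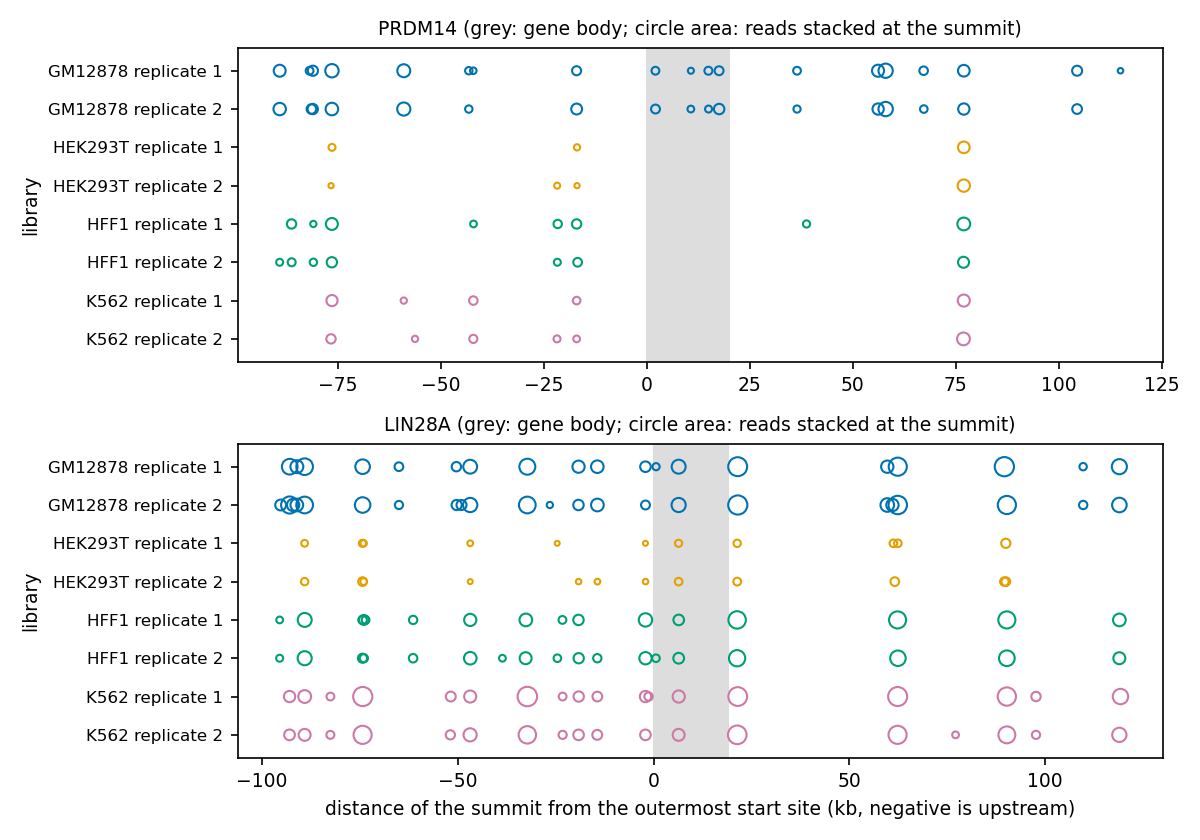
Peaks of the 8 human libraries around PRDM14 (top) and LIN28A (bottom), by distance of the summit from the outermost start site, with circle area for reads stacked at the summit. The 4 peaks inside PRDM14 appear in the GM12878 rows alone, and the intronic LIN28A peak at 6.39 kb is in all 8 rows.

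As same-name pairs, 2 of 10 factors (ZFP42 and PRDM14) had a promoter peak in both mESC libraries and in no human library, against 3.34% of 15712 pairs. For 4 of 10 (those and NANOG and LIN28A) it was in both libraries of no human line, against 4.62%. With promoter windows of 2 kb the first count was 0, since PRDM14 then had a peak in 2 human libraries and ZFP42 in 1. LIN28A then had one in all 8. Of all pairs, 88.0% had the mouse promoter peak. The 2 species were compared by presence alone, with no test.

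Genes with the same presence pattern as a factor over the 8 human promoters were named by closeness of peak rank. The HFF1-only pattern of POU5F1 was shared by 408 other genes (2.04%), of which CLEC14A and SPIN2A were among the 3 nearest. The SOX2 pattern was shared by 68, with SYT2, NOS2 and NALF2 nearest, and the TFCP2L1 pattern by 31, with C2orf72, SERPINC1 and FAM241B nearest. GRP, STOML3 and DRP2 were nearest among 30 for DPPA4, and GDPD2 and EDIL3 were the 2 that shared the ESRRB pattern.

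Beyond the 10 factors, 34 other genes of the network were examined. All 34 had a promoter peak in both mESC libraries, against 73.1% of mouse protein-coding genes. The 10 genes of differentiated lineages all had one too. Of the 32 matched by name in human, 16 had one in both GM12878 libraries, 22 in HEK293T, 21 in HFF1 and 20 in K562, where the shares of all genes given above are 71.9%, 67.8%, 76.2% and 70.4%. DPPA3 (a maternal factor), TDGF1 (a Nodal co-receptor), FGF4 (a growth factor) and DNMT3L (a cofactor of DNA methyltransferases) had none in any human library. These are 4 of 32 (12.5%), near the 14.7% of all human genes. In both libraries of every human line, 14 of 32 had one (43.8%), against 59.7% of all genes. They were DNMT3B, FBXO15, FGF5, IL6ST, KLF2, KLF5, LIN28B, MYC, MYCN, POU3F1, RIF1, STAT3, TET2 and ZSCAN10.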

How the data were processed

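Bulk ATAC-seq peaks were analysed in 10 libraries (5 lines, 2 replicates). The authors deposited 1 peak list per library, in narrowPeak layout, with a fold (linear ratio over local background), a −log10 p, a −log10 q and a score (10 times −log10 q) for each peak. The submitters' processing notes name cutadapt 3.2, Bowtie2 2.4.2, Picard and MACS2 2.2.7.1 and the builds hg38 and mm10, with no role or order. The lowest −log10 q was 2.00 to 2.05. Fold and p are the authors' values. Peaks were ranked by them within a list, and folds given side by side for several libraries describe each list and were not tested against each other.

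Peaks were matched to GENCODE start sites (release 44 for human on GRCh38, M21 for mouse on GRCm38) by an overlap of at least 1 bp, in windows of 1 kb (promoter) and 100 kb. The summit's read number n and background b were solved from fold = (n + 1)/(b + 1) and the Poisson tail, for 100% of peaks. PCR reads are not independent molecules. Motifs were searched on both strands within 50 bases of the summit, with whole peaks as an alternative. The CTCF motif, the background limit and the comparison of strongest peaks were added after seeing the data. Scripts (Python 3.11.15, scipy 1.17.1) were tested on simulated data. The members, gene lists and motifs were chosen with earlier results of these data known. Named peaks were all promoter peaks and the 3 strongest others in mESC, and the strongest of each class per human line, in both replicates. Alternatives were other windows, summits, thresholds, equal list lengths and libraries left out.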

Additional observations from a re-analysis of the deposited data

How the results depend on the processing

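Median peak numbers per factor depend on the window and on list length by construction. With 50 kb the mean of the 2 libraries' medians was 20.8 in mESC, 5.50 in GM12878, 3.50 in HEK293T, 4.75 in HFF1 and 3.50 in K562. With 150 kb it was 46.0, 15.8, 8.00, 15.2 and 8.50. With the 50000 best peaks of each library it was 11.0 in mESC, 4.00 in GM12878, 2.50 in HFF1 and 3.75 in K562, and with −log10 q of at least 5 it was 31.5 in mESC. With 50000 peaks the promoter counts were 7 in mESC, 1 in GM12878 and 1 in HFF1, and the gene-body count in mESC was 3. A 2 kb promoter window gave 5 in GM12878 and 0 mouse-only pairs. For the promoter, gene-body and pair counts under alternatives, the shares of all genes were not computed. Leaving out 1 replicate gave promoter counts of 3 to 4 in GM12878 and 5 to 7 in HFF1, gene-body counts of 2 to 4 in HFF1, and 1 to 5 factors called between human lines. No factor was called between lines with windows of 50 kb (0, with 3 at an unadjusted p under 0.05, and 0 of all 19717 genes), with the 50000 best peaks (0, with 6, and 0 of all 19793) or with the replicate block (0, with 3). The block has 24 divisions of the libraries and a smallest p of 0.0417, and called 0 genes of 19867. Same-numbered replicates did not deviate together (r over genes of −0.017 to 0.013 in 6 pairs of lines), so the numbers do not pair the libraries. Depth is lowest in HEK293T, where a missing peak says least. Apart from window and list length, the cause was not tested.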

Other observations

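Some values lie outside the 100 kb rule. Past the end of mouse Sox2, from 100 to 150 kb, where a distal enhancer cluster of the gene is known, 11 peaks were found in each mESC library. The strongest, 145 kb from the start, had a fold of 13.3 and 15.7 with 78 and 89 reads. Of these, 5 and 4 had a local background above 20 reads (from chr3:34756193 to chr3:34761645), while no Sox2 peak within 100 kb did. The cause was not tested.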
